A study of Mus musculus with 8 samples.

Results

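The calpains and caspases are cysteine proteases of the cytosol that work outside the proteasome and the lysosome. Calpains are switched on by calcium and cut a limited set of proteins. Calpastatin, encoded by Cast, is the specific inhibitor of the conventional calpains (Capn1 and Capn2). Caspases cut after aspartate and carry out apoptosis, in which initiator caspases such as caspase 8 (death receptors), caspase 9 (mitochondria) and caspase 2 are activated on adaptor complexes. In skeletal muscle, calpains are known for cleaving proteins that anchor the sarcomere, and loss of calpain 3 causes a limb-girdle muscular dystrophy.

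Here 10 genes of these families were followed, out of 21212 probe sets on the arrays. Taken by name were the calpain subunit genes Capn1, Capn2, Capn3, Capn7 and Capns1 and the calpastatin gene Cast. The caspase genes were Casp2, Casp8, Casp9 and Casp12. All 10 were measured by 1 probe set each. RNA came from gastrocnemius and plantaris muscles of female C57BL/6J mice aged 7 weeks, 4 of them with the hind limbs unloaded for 5 days (HU) and 4 with the hind limbs weight bearing (WB), and each RNA sample was hybridised to its own whole-transcript array. The mice were wild type and were housed individually, and the comparison asks which genes change in the muscle while it atrophies from disuse. The deposited values are log2 expression values, so a difference of 1 is a 2-fold difference, and levels of different genes cannot be set against each other because each probe set has its own brightness.

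The 8 arrays were alike in scale, with medians between 6.28 and 6.33, and correlated with r between 0.996 and 0.997 within a group and between 0.992 and 0.994 across groups. The 7 fibre markers Ckm, Acta1, Myh1, Myh4, Tnnt3, Pvalb and Mb all had means above 12 in both groups, and as a list they averaged 12.73 to 12.76 in the HU arrays and 12.81 to 12.89 in the WB arrays. Markers of other cells present in whole muscle also moved, where a call is a limma adjusted p under 0.05. Of the macrophage markers 7 of 10 were lower and 0 higher, of the fibroblast markers 5 of 7 were lower, of the tendon markers 3 of 3, and of the fibre markers 3 of 7. Of 6 endothelial markers and of 4 pericyte and smooth muscle markers 1 each was lower, and 2 of 3 satellite cell markers and 1 of 4 neutrophil markers were higher. No lymphocyte (5), Schwann cell (3) or adipocyte (3) marker was called by limma or by the methods' t-test with Benjamini-Hochberg or Storey's q-values, and 1 lymphocyte marker had an unadjusted p under 0.05 and 0 of the others. Fbxo32 and Trim63, ubiquitin ligase genes known from atrophy, rose by 2.01-fold and 1.33-fold (limma adjusted p = 0.000138 and 0.00820).

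Of the 10 genes, 4 were called higher and 4 lower in unloaded muscle at an adjusted p under 0.05 (limma with Benjamini-Hochberg adjustment over all probe sets). Over all probe sets 12.8% were called higher, 11.0% lower and 23.8% in either direction, and among the brighter 50% of the probe sets, in which all 10 genes lie, 35.0% were called. The groups did not overlap in 8 of the 10 genes, against 27.5% of all probe sets. The 10 genes were chosen with earlier results of these data known, so their counts cannot be read as an excess over these shares. RNA of whole muscle was measured, so that fewer cells of a type and less RNA per cell cannot be told apart. The changes were small. Their median size, whatever the sign, was 0.26 on the log2 scale against 0.11 for all probe sets, and as rises and falls balanced, the signed median was 0.07 against 0.04. The methods' t-test has a q-value threshold with no word on how the q-value was computed, so it was run here without assuming equal variances and with 2 q-values. With Benjamini-Hochberg values, which called 6.57% of all probe sets higher and 6.48% lower, 4 of the 10 genes were higher and 2 lower. With Storey's q-values, which called 14.3% higher and 11.3% lower, 4 were higher and 3 lower.

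**Figure D1:**
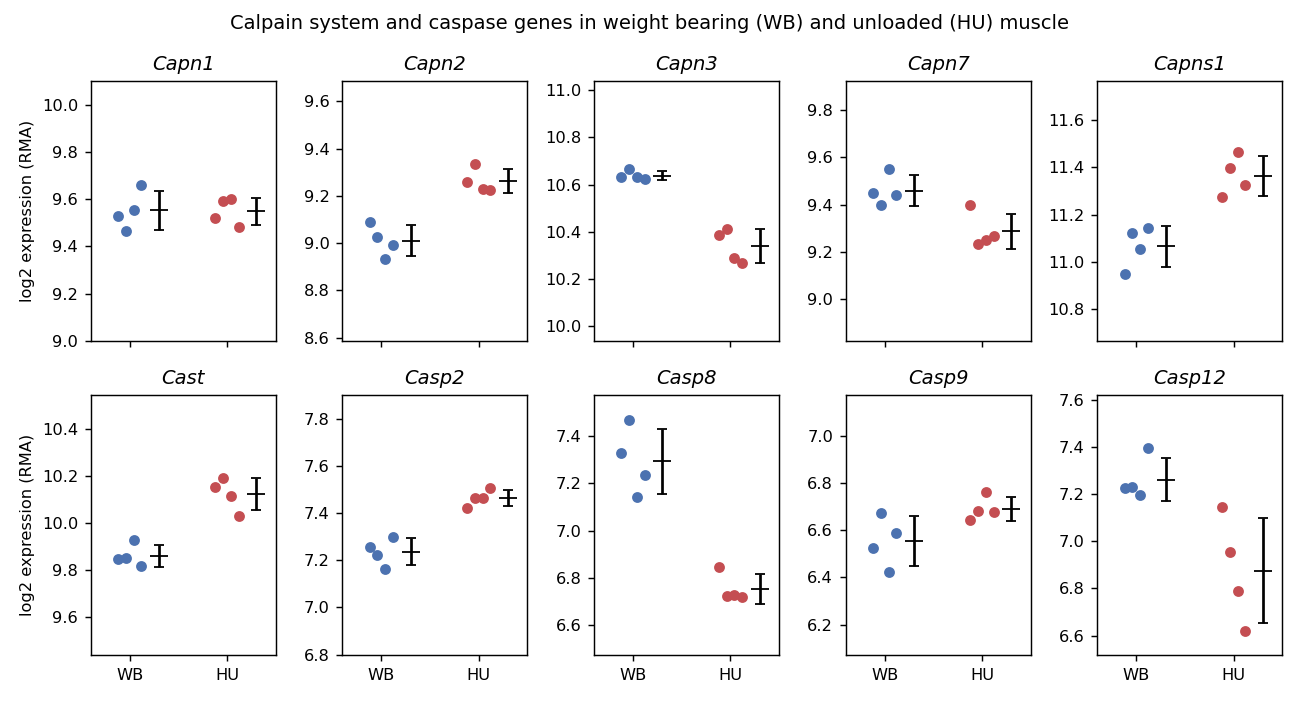
Log2 expression of the 10 genes in each array of weight bearing (WB, blue) and unloaded (HU, red) muscle, with the mean and SD of 4 arrays as a black bar; every panel spans the same range of 1.1 log2 units. The groups are apart in 8 panels and overlap in those of Capn1 and Casp9.

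The start regions of the genes were read from RefSeq (GRCm38.p6), which holds 15 windows for the 10 genes, each from 250 bases before to 50 after a start. As the study concerns an NF-kB factor, the windows were searched on both strands for the NF-kB consensus, and for the FoxO motif GTAAACA, FoxO factors being known regulators of atrophy genes. Neither was in any of the 15 windows, whereas 8.46% and 3.65% of all 32851 windows hold them. This says only that these letters are not in these windows. The windows did differ in CG dinucleotides, of which the 250 bases before a start hold a median of 6 over all windows (quartiles 2 and 16). The numbers were 5 for Casp8 and 1 for Casp12, which were lower in unloaded muscle, and 17 for Casp2 and 19 for Capn2, which were higher. The windows of Capn3, also lower, had 4 and 3. The split did not hold for every gene, since Capn7, lower too, had 18, and of the higher genes Capns1 had 9 and the 4 windows of Cast 1 to 8. Of the genes that did not pass, Capn1 had 11 in each of its windows and Casp9 25. The 250 bases before the start of Casp8, Casp12, Casp2 and Capn2 are printed as examples of low and high numbers, and do not stand for the 10 genes. They run 5′ to 3′ on the strand of the gene, with each CG in capitals. They lie at chr1:58802252-58802501 (Casp8, plus strand), chr9:5345226-5345475 (Casp12, plus strand), chr6:42264735-42264984 (Casp2, plus strand) and chr1:182517611-182517860 (Capn2, minus strand).
Casp8: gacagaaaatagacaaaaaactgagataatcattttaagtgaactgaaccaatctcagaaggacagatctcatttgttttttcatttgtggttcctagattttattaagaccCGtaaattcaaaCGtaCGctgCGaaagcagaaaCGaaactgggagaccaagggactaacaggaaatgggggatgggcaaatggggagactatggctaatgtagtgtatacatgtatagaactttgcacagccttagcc
Casp12: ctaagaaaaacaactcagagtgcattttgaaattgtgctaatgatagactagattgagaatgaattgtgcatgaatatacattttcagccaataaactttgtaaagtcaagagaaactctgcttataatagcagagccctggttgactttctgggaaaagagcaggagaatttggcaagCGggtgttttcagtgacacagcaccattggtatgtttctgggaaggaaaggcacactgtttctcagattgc
Casp2: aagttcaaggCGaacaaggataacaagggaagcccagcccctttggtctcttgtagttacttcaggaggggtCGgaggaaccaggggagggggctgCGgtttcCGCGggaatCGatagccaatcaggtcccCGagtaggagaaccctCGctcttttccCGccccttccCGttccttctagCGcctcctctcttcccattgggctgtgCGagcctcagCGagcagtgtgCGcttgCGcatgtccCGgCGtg
Capn2: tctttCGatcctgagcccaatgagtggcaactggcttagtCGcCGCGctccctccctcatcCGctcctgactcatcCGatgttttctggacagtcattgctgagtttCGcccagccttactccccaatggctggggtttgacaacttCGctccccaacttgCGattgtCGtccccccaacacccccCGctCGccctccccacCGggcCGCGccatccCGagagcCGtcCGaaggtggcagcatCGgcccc

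The conventional calpains are heterodimers of a large catalytic subunit, encoded by Capn1 (µ-calpain) or Capn2 (m-calpain), with the common small subunit encoded by Capns1. In unloaded muscle the small subunit, calpain 2 and the inhibitor rose together, while calpain 1 did not pass the test. For Capns1 the log2 values were 11.27, 11.40, 11.47 and 11.33 in HU replicates 1 to 4, and 10.95, 11.12, 11.05 and 11.14 in WB replicates 1 to 4. Every HU array was above every WB array. The rise was 1.23-fold (log2 change 0.30 ± 0.06 SE, limma adjusted p = 0.00655), and it was the largest rise among the 10 genes.

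For Capn2 the HU values were 9.26, 9.34, 9.23 and 9.23 and the WB values 9.09, 9.03, 8.93 and 8.99. Again no array of one group reached the other. The gene rose 1.19-fold (log2 change 0.25 ± 0.05 SE, limma adjusted p = 0.00627). Cast, the inhibitor of both conventional calpains, read 10.15, 10.19, 10.11 and 10.03 in the HU arrays and 9.85, 9.85, 9.93 and 9.82 in the WB arrays. The lowest HU array was above the highest WB array, and the rise was 1.20-fold (log2 change 0.26 ± 0.05 SE, limma adjusted p = 0.00514).

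Capn1 gave another picture. Its HU values were 9.52, 9.59, 9.60 and 9.48 and its WB values 9.53, 9.46, 9.56 and 9.66. The groups lay on top of each other. The log2 change was -0.00 with a 95% interval from -0.13 to 0.12 (limma adjusted p = 0.963), so that a rise of the size fitted for Capn2 or Capns1 lies outside the interval.

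Within each array the log2 value of a calpain gene was also set against that of Cast and expressed relative to the WB mean of this difference. For Capn2 the HU arrays averaged -0.01 ± 0.04 (SD, n = 4), between -0.04 and 0.05, inside the WB range of -0.14 to 0.09. For Capns1 they averaged 0.04 ± 0.10 (SD, n = 4), from -0.08 to 0.15, and overlapped the WB range of -0.10 to 0.12. Relative to Cast, Capn1 was lower in every HU array, at -0.27 ± 0.05 (SD, n = 4), where the WB arrays had an SD of 0.10. Capn3 was lower still, at -0.56 ± 0.03 (SD, n = 4), against a WB SD of 0.05. These differences show unequal change of RNA only and were given no test. Capn3 is not one of the conventional calpains that calpastatin inhibits.

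**Figure D2:**
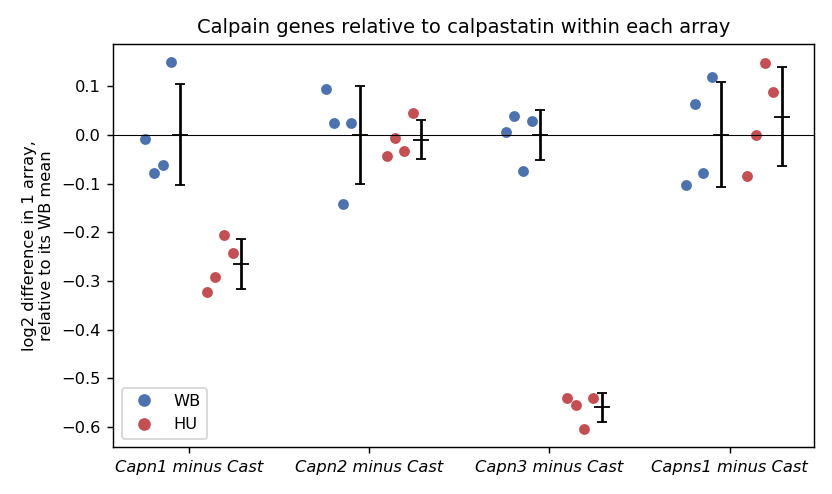
Log2 value of each calpain gene minus that of Cast in the same array, relative to the WB mean of that difference, for WB (blue) and HU (red) arrays with mean and SD. The HU and WB arrays overlap for Capn2 and Capns1, and the HU arrays of Capn1 and Capn3 lie below them, near -0.27 and -0.56.

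Capn3 and Capn7 went down. Capn3 encodes the muscle-specific calpain, which is bound to the giant sarcomere protein titin. Its HU values were 10.39, 10.41, 10.29 and 10.27 and its WB values 10.63, 10.67, 10.63 and 10.62. The WB arrays were tightly packed (SD 0.02) and all above the HU arrays. Capn3 fell by 0.30 on the log2 scale, 1.23-fold (SE 0.05, limma adjusted p = 0.00216). Capn7 encodes an atypical calpain that lacks the calcium-binding domain of the conventional ones. It read 9.40, 9.23, 9.25 and 9.27 in the HU arrays and 9.45, 9.40, 9.55 and 9.44 in the WB arrays. The highest HU array, replicate 1, lay only 0.00022 below the lowest WB array, replicate 2. The fall was 1.13-fold (log2 change -0.17 ± 0.06 SE, limma adjusted p = 0.0465), and the call was lost in 12 of 18 alternatives, among them 7 that each leave out 1 array. The adjusted p was 0.0223 without HU replicate 1 and between 0.0537 and 0.114 without any other single array.

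The other calpain genes of the mouse were examined as a list. Of 10, 2 were higher and 2 lower, against 12.8% and 11.0% of all probe sets. The list median was 0.14. Over all probe sets the median was 0.04, and without the dimmest 50% it was 0.006. The 6 genes of the list that were not called were dim, so the value of 0.006 is not a like comparison. Capn6, an atypical calpain without protease activity, was 1.34-fold lower (6.35, 6.21, 6.26 and 6.31 in the HU arrays, 6.78, 6.70, 6.52 and 6.82 in the WB arrays, limma adjusted p = 0.00200). Capn5 was 1.21-fold lower (adjusted p = 0.00359). The groups did not overlap for either gene, and the calls held in all 18 alternatives. Capn10 and Capn15 were 1.17-fold higher each, with adjusted p-values of 0.0449 and 0.0463. The call of Capn10 was lost without any 1 array except HU replicate 1, with an adjusted p of up to 0.116. That of Capn15 was lost without HU replicate 2, 3 or 4 or WB replicate 1, 2 or 3, with an adjusted p of up to 0.106, and by the methods' t-test neither was called with Benjamini-Hochberg values, while with Storey's Capn10 was (0.0488) and Capn15 was not (0.0575). Capn8, Capn9, Capn11, Capn12, Capn13 and the second small subunit gene Capns2 had log2 changes between 0.07 and 0.48 and did not pass. They were dim, with WB means from 3.62 (Capn13) to 5.12 (Capn12).

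**Figure D3:**
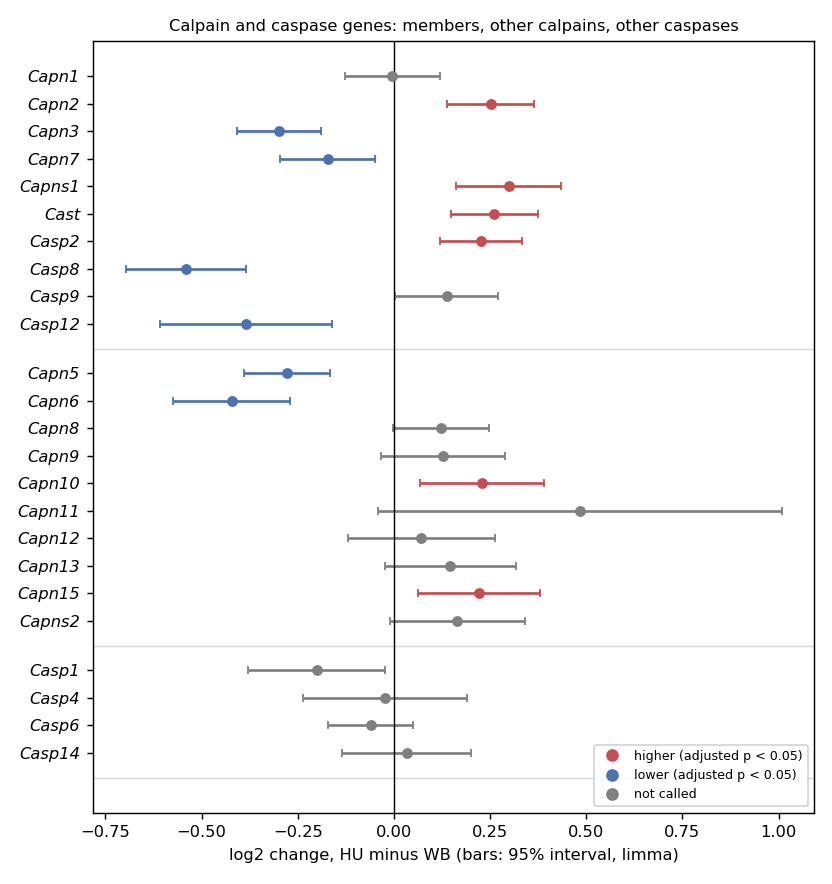
Log2 change (HU minus WB) with its 95% interval from limma for the 10 genes (top block), the other calpains (middle) and the other caspases (bottom); red and blue points passed an adjusted p of 0.05. Casp8 has the lowest value, -0.54, all intervals of the bottom block lie within 0.38 of 0, and Capn11 has the widest interval, from -0.04 to 1.01.

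Among the caspases the 4 genes went in both directions. Casp8 encodes the initiator caspase of the death receptors, which also restrains necroptosis. It read 6.85, 6.72, 6.73 and 6.72 in the HU arrays and 7.33, 7.47, 7.14 and 7.24 in the WB arrays. All HU arrays were below all WB arrays, with a gap of 0.30. The fall was 1.46-fold (log2 change -0.54 ± 0.07 SE, limma adjusted p = 0.000555), the largest change of the 10 genes in either direction.

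Casp12 encodes a caspase of the inflammatory group that is attached to the endoplasmic reticulum. It read 7.14, 6.95, 6.79 and 6.62 in the HU arrays and 7.23, 7.23, 7.19 and 7.39 in the WB arrays. The HU arrays were spread widely (SD 0.22, the highest of any of the 10 genes in either group), and the highest of them was 0.05 below the lowest WB array. The fall was 1.31-fold (log2 change -0.39 ± 0.10 SE, limma adjusted p = 0.0205). It was not called without HU replicate 3 (adjusted p = 0.0567), without WB replicate 4 (0.0519) or by the methods' t-test with Benjamini-Hochberg (0.124) or Storey's values (0.0551).

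Of the macrophage markers 7 of 10 were called lower in the same arrays, and of the fibroblast markers 5 of 7. Among the fibroblast markers Dcn (log2 change -0.02) and Pdgfra (-0.11) were not called. Nor were the macrophage markers Cd68 (-0.04), Cd163 (-0.18) and Itgam (-0.28). The 10 macrophage markers averaged 7.10 to 7.40 in the HU arrays and 7.51 to 7.78 in the WB arrays, with a median log2 change of -0.43, and the 7 fibroblast markers averaged 8.41 to 8.62 and 9.60 to 9.83. The dimmest macrophage marker, Itgam, averaged 5.74 in the HU and 6.02 in the WB arrays, and with no detection call it is not known which markers were above background. Among the WB arrays replicate 2 was the highest and replicate 3 the lowest in Casp8, the macrophage mean and the fibroblast mean, while Casp12 was highest in replicate 4 and lowest in replicate 3. Among the HU arrays Casp8 and Casp12 were highest in replicate 1, the macrophage mean in replicate 2 and the fibroblast mean in replicate 3. The part of these cells in the lower Casp8 and Casp12 values was not tested.

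**Figure D4:**
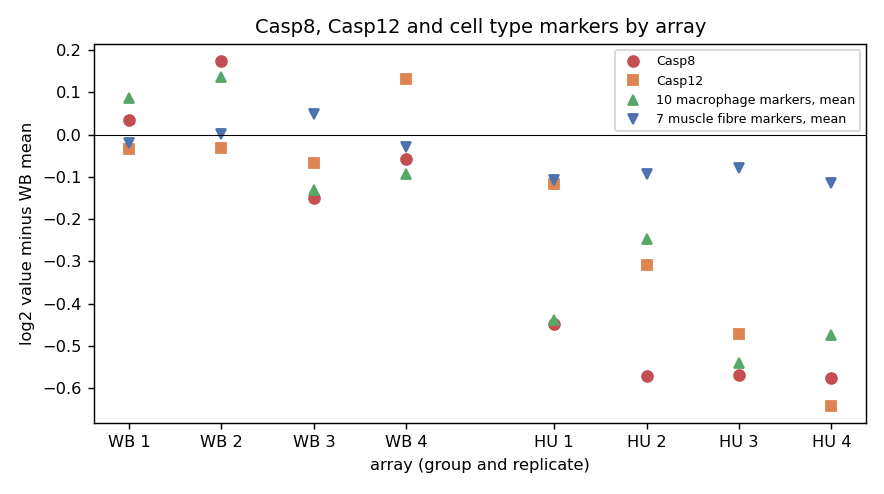
Casp8, Casp12 and the mean of 10 macrophage and of 7 muscle fibre markers in each array, as log2 values relative to the mean of the WB arrays. Casp8, Casp12 and both marker means lie lower in every HU array than in any WB array. Casp12 is spread most widely among the HU arrays (SD 0.22), and the fibre marker mean moves from 12.81 to 12.89 in WB to 12.73 to 12.76 in HU.

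Casp2 encodes an initiator caspase that is activated on a complex with the adaptors Pidd1 and Cradd, the PIDDosome. It read 7.42, 7.46, 7.46 and 7.50 in the HU arrays and 7.26, 7.22, 7.16 and 7.30 in the WB arrays. The groups were apart, and the gene rose 1.17-fold (log2 change 0.23 ± 0.05 SE, limma adjusted p = 0.00759). Its adaptor Cradd was 1.22-fold lower (adjusted p = 0.0147, and by the methods' t-test 0.0574 with Benjamini-Hochberg and 0.0255 with Storey's values), and Pidd1 did not pass (log2 change 0.12, adjusted p = 0.256). Casp9, the initiator caspase of the apoptosome, read 6.64, 6.68, 6.76 and 6.68 in the HU arrays and 6.52, 6.67, 6.42 and 6.59 in the WB arrays. WB replicate 2 reached into the HU range. The log2 change of 0.14 (95% interval 0.00 to 0.27) did not pass after adjustment (limma adjusted p = 0.125).

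None of 4 other caspase genes (Casp1, Casp4, Casp6 and Casp14) was called by limma or by the methods' t-test with either q-value, and 1 of them had an unadjusted p under 0.05. Casp1, the caspase that processes interleukin 1 beta, had a log2 change of -0.20 (limma adjusted p = 0.0937). It passed after quantile normalization (0.0470) and without WB replicate 4 (0.0339). With means of 4.33 in HU and 4.53 in WB it lay among the dimmest 25% of probe sets. Casp6 had a log2 change of -0.06 (adjusted p = 0.402).

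The genes around these proteases were taken as 10 lists, the other calpains and caspases included, and 96 of 97 listed genes were measured. Of these, 15 were higher and 16 lower, 32.3% called, against 23.8% of all probe sets and 35.0% of the brighter 50%. The median log2 change was 0.03 against 0.04 for all probe sets. Of 20 calpain substrates and partners of calpain 3, 3 were higher and 4 lower. Vcl, the focal adhesion protein vinculin, was 1.31-fold lower (limma adjusted p = 0.000266), and Ahnak, a large membrane-associated protein, was 1.28-fold higher (0.00100). The filamin gene Flnc was 1.23-fold lower (0.0353) and the Z-disc gene Ldb3 1.19-fold lower (0.00517). The call of Flnc was lost without HU replicate 1 or 3 or WB replicate 2 or 3 (adjusted p up to 0.0922). Titin itself, the anchor of calpain 3, named after its values were seen, had a log2 change of -0.03 (adjusted p = 0.629).

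Of 15 genes of the Bcl-2 family, which controls the release of cytochrome c from mitochondria, 4 were higher and 0 lower by limma, with 6 and 0 before adjustment (p under 0.05). The methods' t-test called 2 and 0 with Benjamini-Hochberg and 4 and 0 with Storey's values, and 12.8% of all probe sets were called higher by limma. That share is after adjustment, and none is given here for the looser threshold that the 6 genes met. The 4 genes were Hrk (1.20-fold, limma adjusted p = 0.00321), Bak1 (1.18-fold, 0.0146), Bmf (1.17-fold, 0.0271) and Bad (1.14-fold, 0.0282). Bmf was not called without HU replicate 2 or WB replicate 2 or 3 (adjusted p up to 0.0679), and Bad not without HU replicate 1, 2 or 4 or WB replicate 1 (up to 0.0708). The list median was 0.11.

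Of 7 genes of the apoptosome and its inhibitors, 0 were higher and 2 lower, against 12.8% and 11.0% of all probe sets. Before adjustment, a looser threshold for which no share of all probe sets is given here, 0 and 4 had a p under 0.05. The methods' t-test called none with Benjamini-Hochberg values and 0 and 3 with Storey's. Cycs, cytochrome c, which also carries electrons in respiration, was 1.57-fold lower (limma adjusted p = 0.00855), although its many pseudogenes make the probe set uncertain, and Htra2, a mitochondrial protease, 1.19-fold lower (0.0132). With means of 5.36 in HU and 6.01 in WB, Cycs lay among the dimmest 50% of probe sets. For Cycs and Htra2 the methods' t-test gave 0.0955 and 0.0570 with Benjamini-Hochberg and 0.0424 and 0.0253 with Storey's values. Of 9 caspase substrates and nuclear effectors, 2 were lower and 0 higher. Before adjustment 4 were lower and 0 higher at a p under 0.05, again with no share of all probe sets beside it. The methods' t-test called 1 lower and 0 higher with Benjamini-Hochberg and 3 and 0 with Storey's values. The 2 genes called lower by limma were Endog (1.19-fold, 0.0102) and Aifm1 (1.19-fold, 0.00391), both mitochondrial proteins that can act on nuclear DNA in cell death.

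Of 12 genes of the death receptor pathway, in which caspase 8 acts, 1 was higher and 2 lower. The shares of all probe sets were 12.8% and 11.0%. Tnfsf10, the ligand TRAIL, was 1.20-fold higher (limma adjusted p = 0.0289), and its receptor Tnfrsf10b 1.21-fold lower (0.0379). Cflar, the catalytically inactive relative and regulator of caspase 8, was 1.13-fold lower (0.0273). None of these 3 calls held throughout. Tnfsf10 was lost without HU replicate 1, 3 or 4 or WB replicate 2 or 3 (adjusted p up to 0.0775), Tnfrsf10b without HU replicate 2, 3 or 4 or WB replicate 1, 2 or 3 (up to 0.0953), and Cflar without HU replicate 2 or 3 or WB replicate 1, 2 or 4 (up to 0.0741).

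Of 10 genes of endoplasmic reticulum stress, the setting in which caspase 12 was described, 4 were higher and 2 lower. Over all probe sets 12.8% were called higher and 11.0% lower. Ppp1r15a, a phosphatase subunit that restores translation, was 1.65-fold higher (limma adjusted p = 0.00302). Trib3 was 1.22-fold higher (0.00624) and the stress sensor Ern1 1.19-fold (0.00221). The chaperone Hsp90b1 was 1.31-fold lower (0.00230). With Benjamini-Hochberg values the methods' t-test gave 0.0873 for Ppp1r15a and 0.0520 for Hsp90b1, and with Storey's 0.0388 and 0.0231. Of 7 inflammasome genes, Il1b was 1.32-fold higher (0.00943, and by the methods' t-test 0.0588 with Benjamini-Hochberg and 0.0262 with Storey's values). Il18 was 1.30-fold lower (0.00450), and the other 5 did not pass. Il1b (mean 4.88 in HU, 4.49 in WB) and Il18 (4.55 and 4.92) lay among the dimmest 25% of probe sets. With no detection call it is not known whether they were above background.

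**Figure D5:**
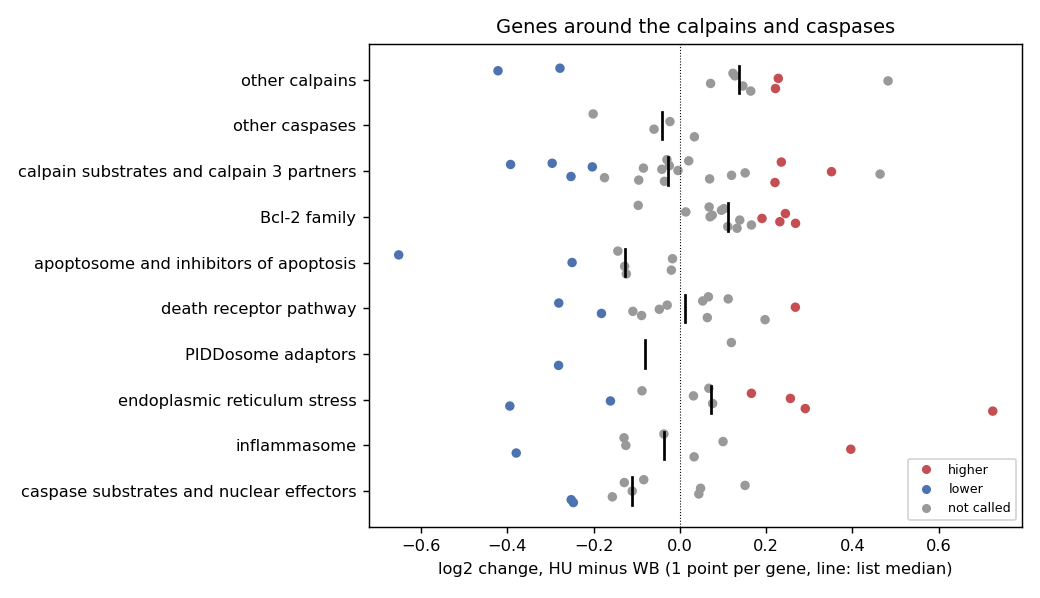
Log2 change (HU minus WB) of each measured gene of 10 lists around the calpains and caspases, with the list median as a line; red and blue points passed an adjusted p of 0.05. The Bcl-2 family has 4 higher and 0 lower genes, the list of apoptosome and inhibitors 0 higher and 2 lower, and the other caspases none.

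Genes with the most similar values to the largest rise and fall were sought by the root mean square difference over the 8 arrays, after each gene was set relative to its WB mean. Closest to Capns1 were Syndig1 (0.020 on the log2 scale), Hook2 (0.023), Proc (0.038), Cxcl17 (0.040) and Tmem9 (0.040). Closest to Casp8 were Ctsh (0.058), which encodes the lysosomal protease cathepsin H, Auts2 (0.059), Antxr1 (0.059), Tgfb3 (0.060) and Lpar4 (0.070). This choice itself brings their log2 changes near those of Capns1 and Casp8. They lay between 0.26 and 0.29 and between -0.56 and -0.49.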

How the data were processed

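Total RNA of 8 mice was hybridised by the authors to Affymetrix Mouse Gene 1.0 ST arrays. The deposited log2 values were computed by the authors with robust multi-array analysis (RMA, also named in the submitters' processing notes) and a Brainarray custom probe set definition, of which neither the release nor the genome build is stated in the sources used here. RMA equalises the arrays, so a change common to all genes cannot be seen. Values were used as deposited, without a filter.

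Probe sets, named by Entrez gene ID, were matched to RefSeq symbols (20656 of 21212, with 53 named by the platform annotation and 503 unnamed). HU and WB were compared over all probe sets by a two-sided test in limma 3.58.1 (R 4.3.3), lmFit followed by eBayes, and p-values were adjusted by Benjamini-Hochberg. Log2 differences were raised to base 2 to give folds. The fit was tested on simulated arrays. Summaries and plots used Python 3.11.15, pandas 2.3.3 and matplotlib 3.10.9. The number of arrays limits the precision, and 0 sample columns were left unused.

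The 10 genes, 10 pathway lists and 11 marker lists were chosen with earlier results of these data known, and 2 listed genes are not reported here. Of each pathway list the text names at most 4 called genes, those that changed most, or where none was called at most 2 genes ranked by p, and the 5 genes most like the largest rise and fall. Pidd1, Ttn and the remaining calpains and caspases fall outside that rule. As alternatives, the t-test of the methods was run without assuming equal variances (adjusted by Benjamini-Hochberg, or by Storey with lambda 0.5) and with equal variances. The limma fit was repeated with an intensity trend and robust variance, with array weights, with the dimmest 25% or 50% of probe sets removed, after a further quantile normalization, after centring each array on its median, with a block for replicate number, and without each array in turn.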

Additional observations from a re-analysis of the deposited data

Results flagged for a closer look

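In each group of 4 arrays the highest or lowest value was compared with its nearest neighbour, for the 10 genes, the other calpains and caspases and the named pathway genes (7 of 92 groups stood out, where chance gives about 1 in 20). Casp8 in HU replicate 1 was 6.85, above the others, whose highest was 6.73. Capn3 in WB replicate 2 was 10.67, the next 10.63. Capn11, not called, was 5.70 in HU replicate 3, where the next HU array was 4.57. Capn9 in WB replicate 3 was 4.45, below the next at 4.65. In WB replicate 1, Bad was 5.86, below the next array at 6.02, and Cflar was 6.97, above 6.93. Ppp1r15a in WB replicate 2 was 7.08, above 7.00. Casp8 and Capn3 were still called without the array that stood out.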

How the results depend on the processing

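The count of 4 higher genes was the same in all 18 alternatives. The count of 4 lower genes became 2 by the methods' t-test with Benjamini-Hochberg values (3 with Storey's), by the t-test with equal variances, without HU replicate 3 and without WB replicate 4, and lay between 2 and 4 with 1 array left out. Capn2, Capn3, Capns1, Cast, Casp2 and Casp8 kept direction and call in all 18, with a highest adjusted p of 0.0313 (Capns1, the methods' t-test with Benjamini-Hochberg values). Capn7 was also lost after quantile normalization (adjusted p = 0.0517), with array medians set to 0 (0.0621), by the t-test with equal variances (0.0628) and by the methods' t-test with Benjamini-Hochberg (0.0741) but not with Storey's values (0.0329), and Casp12 with Storey's q-value (0.0551) and equal variances (0.0771). Capn1, never called, ranged from -0.034 to 0.031 with 1 array left out and changed sign without HU replicate 1 (0.0047), HU replicate 4 (0.018) or WB replicate 4 (0.031). The cause was not tested. Replicate numbers were not taken to pair the arrays, since the labels name no pairs and the mice were assigned to groups at random. Same-numbered deviations correlated between 0.024 and 0.120, all above 0, which does not decide whether arrays were paired. HU replicates 2, 3 and 4 were most like the WB array of their number (0.037, 0.120 and 0.095), and HU replicate 1 was most like WB replicate 3 (0.102). With the number as a block 4 of the 10 were higher and 3 lower, Capn7 being lost (adjusted p = 0.0696). Over all probe sets 2715 were higher and 2324 lower by limma, 1393 and 1374 by the methods' t-test with Benjamini-Hochberg and 3033 and 2403 with Storey's values, and 1802 were higher without HU replicate 3. Counts per pathway list moved with the setting: other calpains 0 to 3 higher, Bcl-2 family 2 to 5 higher, death receptor pathway 0 to 2 higher and 0 to 2 lower, apoptosome 0 to 3 lower, endoplasmic reticulum stress 2 to 4 higher and 1 to 2 lower, calpain substrates 3 to 5 higher, inflammasome 0 to 1 each way, other caspases 0 to 1 lower, caspase 2 adaptors 0 to 1 lower, and caspase substrates 0 to 1 higher and 1 to 3 lower.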
